A study of Mus musculus with 8 samples.

Results

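Of the 10 genes for acute phase proteins and hepcidin examined here, 0 of 13 probe sets passed the threshold between Mfp2 knockout and wild type livers of newborn mice, and Hamp showed the widest gap between the groups. The members were the probe sets that the array annotation assigns to exactly 1 of the symbols Saa1, Saa2, Saa3, Saa4, Lcn2, Orm2, Hp, Hpx, Crp and Hamp, which gave 13 of the 45037 probe sets tested and 10 of 18193 genes. Saa1, Saa4 and Hamp had 2 probe sets each and the other 7 genes had 1. The study measured total RNA of the liver at 2 days of age on 8 Affymetrix arrays, 1 for each sample. KO 1 to KO 4 had the genotype Mfp2 -/- and WT 1 to WT 4 were wild type. The labels give no strain, sex or litter. Mfp2 is a peroxisomal enzyme needed to shorten bile acid precursors and fatty acids that are branched or very long, and its gene is Hsd17b4. All values are log2 values made by the authors with RMA, which corrects background, equalises the distributions of the arrays and gives 1 value for each probe set. In whole liver, fewer cells of a type and less RNA per cell cannot be told apart.

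The acute phase response is the change in the proteins that the liver secretes after infection or injury. Interleukin 6 acts on hepatocytes through STAT3, and interleukin 1 and tumour necrosis factor act through NF-kB and C/EBP factors, to raise serum amyloid A, haptoglobin, hemopexin and orosomucoid. Hepcidin, the product of Hamp, is a peptide hormone that binds the iron exporter ferroportin and removes it from the cell surface. Its gene is switched on by bone morphogenetic proteins (BMPs) through SMAD factors when iron is high, is also raised by interleukin 6, and is held down when red cell production is high.

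The DNA just before the transcription start is shown for the genes whose values are described most closely below, because Hamp and the serum amyloid A genes differ in the letter patterns known for these routes. Each line gives 250 bases before the start, 5′ to 3′, from the RefSeq table of GRCm38.p6, in which 9 of the 10 members were found, all but Hp. Capitals mark matches on either strand to 3 patterns, GGCGCC (the core of the BMP-responsive element), TTCNNNGAA (a STAT site) and TTNNGNAA (a loose form of the C/EBP site). The 3 patterns were searched in 32851 such windows, and a match is a description of letters and not of a bound factor.
Hamp, chr7:30944030-30944279, minus strand: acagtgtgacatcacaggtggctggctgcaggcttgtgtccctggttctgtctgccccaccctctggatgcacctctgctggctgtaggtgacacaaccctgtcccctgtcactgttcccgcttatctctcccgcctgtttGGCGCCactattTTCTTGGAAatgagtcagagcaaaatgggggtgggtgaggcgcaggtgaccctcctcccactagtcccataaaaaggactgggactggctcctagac
Hamp2, chr7:30924182-30924431, minus strand: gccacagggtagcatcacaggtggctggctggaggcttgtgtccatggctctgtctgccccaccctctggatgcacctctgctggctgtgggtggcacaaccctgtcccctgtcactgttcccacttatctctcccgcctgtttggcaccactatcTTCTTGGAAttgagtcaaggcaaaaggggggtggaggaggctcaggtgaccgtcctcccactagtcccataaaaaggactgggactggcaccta
Saa1, chr7:46742981-46743230, minus strand: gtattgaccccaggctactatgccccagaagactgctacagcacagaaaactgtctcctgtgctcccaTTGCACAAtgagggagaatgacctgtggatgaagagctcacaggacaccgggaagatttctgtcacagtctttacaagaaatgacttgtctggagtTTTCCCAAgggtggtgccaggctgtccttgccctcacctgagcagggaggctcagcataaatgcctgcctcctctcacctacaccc
Saa2, chr7:46751583-46751832, plus strand: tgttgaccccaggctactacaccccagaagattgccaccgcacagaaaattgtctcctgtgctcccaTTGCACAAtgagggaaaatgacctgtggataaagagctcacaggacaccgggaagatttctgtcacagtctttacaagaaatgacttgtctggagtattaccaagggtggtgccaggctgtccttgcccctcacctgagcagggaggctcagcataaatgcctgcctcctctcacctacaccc
Saa3, chr7:46715677-46715926, minus strand: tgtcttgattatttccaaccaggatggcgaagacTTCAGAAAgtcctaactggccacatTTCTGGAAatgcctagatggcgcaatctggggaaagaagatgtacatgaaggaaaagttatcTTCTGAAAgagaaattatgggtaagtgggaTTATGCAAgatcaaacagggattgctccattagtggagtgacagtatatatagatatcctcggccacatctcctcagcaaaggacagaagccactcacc

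Hamp was the 1 member of 9 with the BMP core, at positions -109 to -104 relative to the start, and the 1 member of 9 with the STAT pattern, at positions -97 to -89. The BMP core stood in 9.6% of all windows and the STAT pattern in 7.0%. The loose C/EBP pattern stood in 8 of the 9 members, all but Hamp, and in 36.8% of all windows. Matches to it can overlap on both strands, and in Orm2 both strands matched at positions -120 to -113. Hamp2, a neighbouring copy of Hamp, was 89.7% identical to it over this window and lacked the BMP core. A stretch of 24 bases shows the place, with the core and its counterpart in capitals.
Hamp: cgcctgtttGGCGCCactattttc
Hamp2: cgcctgtttGGCACCactatcttc
Counted from 1 at the 5′ end of the stretch, the bases of Hamp and Hamp2 differed as G13A, which lies in the core, and T21C. Saa1 and Saa2, a near-identical pair on chromosome 7, were 94.8% identical over the window, against 48.5% for Saa1 and Saa3 and 46.3% for Saa1 and Saa4.

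The targeted transcript, Hsd17b4, fell by 4.66 on the log2 scale (limma adjusted p 0.000100), with values of 3.25 to 4.29 in KO livers and 8.15 to 8.97 in WT livers. Array medians lay between 3.68 and 3.73. Pairs of arrays of 1 genotype correlated at 0.983 to 0.993, and pairs of different genotype at 0.976 to 0.989. The actin 3' minus 5' value, a sign of RNA quality, was 0.58 to 0.86 in KO and 0.52 to 0.67 in WT arrays. KO 1, KO 2 and WT 3 had high Xist and little signal from Y-linked genes. Albumin, a defining product of hepatocytes, lay between 13.44 and 13.54 in KO and between 13.50 and 13.55 in WT livers, near the top of the array range of 13.6 to 13.7.

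Hamp was higher in every knockout liver than in any wild type liver, without passing the threshold over all probe sets. Its first probe set (1419196_at) read 9.51, 10.94, 9.97 and 11.03 in KO 1 to KO 4, against 6.56, 9.18, 9.15 and 9.14 in WT 1 to WT 4. The lowest knockout value therefore stood above the highest wild type value, and 3 of the wild type livers lay close together while WT 1 lay far below them. The means were 10.37 ± 0.75 in KO and 8.51 ± 1.30 in WT livers (SD, n = 4 each). The difference of KO minus WT was 1.86 ± 0.59 (SE), a 3.63-fold level with a 95% interval of 1.46-fold to 9.02-fold, and the limma adjusted p was 0.224.

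The second probe set of Hamp (1419197_x_at) gave the same picture. It read 9.37, 11.17, 9.92 and 11.01 in KO livers and 6.59, 9.05, 8.87 and 9.002 in WT livers. Every KO value again lay above every WT value, and the 2 probe sets differed by 0.027 to 0.27 within a liver. The difference of this second set was 1.99 ± 0.58 (SE), with a limma adjusted p of 0.184. Its name ends in _x_at, the mark that Affymetrix gives to sets with probes that can bind other transcripts, so it can take up Hamp2.

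The size of the Hamp difference rested in part on WT 1. Without WT 1 the differences of the 2 probe sets were 1.21 and 1.39, with limma adjusted p of 0.176 and 0.180. They were 2.36 and 2.45 within replicates 1 and 2, which hold WT 1, and 1.36 and 1.52 within replicates 3 and 4. These 2 sets of arrays were told apart in an earlier analysis of the same data, and no label ties them to a batch. Within replicates 1 and 2 both KO livers had high Xist and low Y-linked signal and both WT livers the reverse, so genotype and this difference cannot be told apart there, for Hamp or for the other genes given by replicate. With the mean of the Y-linked transcripts as a covariate the differences were 1.86 and 2.00.

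**Figure D1:**
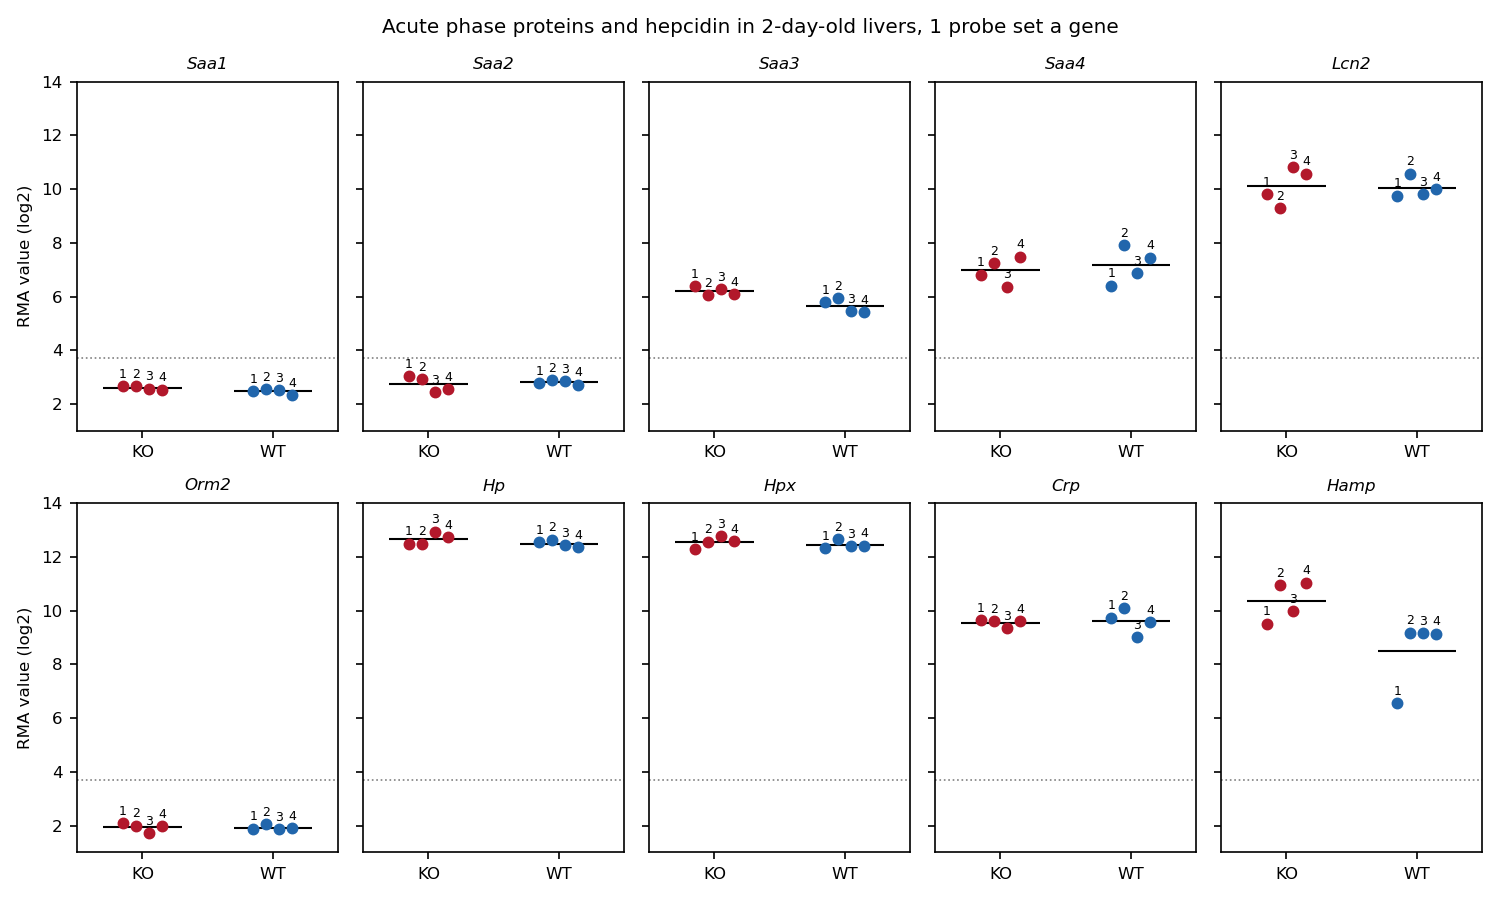
RMA values (log2) of the 10 genes in each liver, with the probe set of the highest mean for each gene. Points are single livers numbered by replicate, bars are group means, and the dotted line is the mean of the array medians. Hamp and Saa3 are the 2 genes in which the KO and WT livers do not overlap, and Saa1, Saa2 and Orm2 lie below the dotted line in all 8 livers.

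Saa3, an inflammation-induced serum amyloid A that is also made by macrophages and fat cells, was the other member whose groups did not overlap. It read 6.38, 6.04, 6.28 and 6.09 in KO livers and 5.80, 5.93, 5.45 and 5.41 in WT livers. WT 2, the highest wild type liver, came close to the lowest knockout liver, KO 2. The difference was 0.55 ± 0.14 (SE), a 1.46-fold level, with a limma adjusted p of 0.126. Among replicates 1 and 2 it came to 0.35, and among replicates 3 and 4 to 0.75. Saa3 was the only member called under any of the 19 alternatives, with array weights, where its limma adjusted p was 0.0477. Of 11 measured macrophage markers 0 passed, and their mean lay between 7.18 and 8.03 in KO and between 7.14 and 7.69 in WT livers. A difference above 0 was seen in 7 of these markers and below 0 in 4, among them Clec4f at -0.14 and Timd4 at -0.16. The lowest p of the 11 was that of C1qa, a complement subunit made by macrophages, at 7.80 to 8.32 in KO and 7.52 to 8.03 in WT livers. Their part in the Saa3 values was not tested.

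Read over the members as a whole, the count past the threshold was 0 of 13 in limma, against 0.762% of all probe sets. At an unadjusted p under 0.05 there were 3 of 13 probe sets, 2 of Hamp and 1 of Saa3, against 11.7% of all probe sets. The same 3 probe sets were those in which all KO values lay above all WT values, a pattern seen in 3.09% of all probe sets. All KO values lay below all WT values in 0 of 13, against 3.81% of all probe sets. Since the 2 probe sets of Hamp read 1 gene, these are 2 genes of 10. The median difference over the 10 genes was 0.093, and that over all 18193 genes was 0.014.

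**Figure D2:**
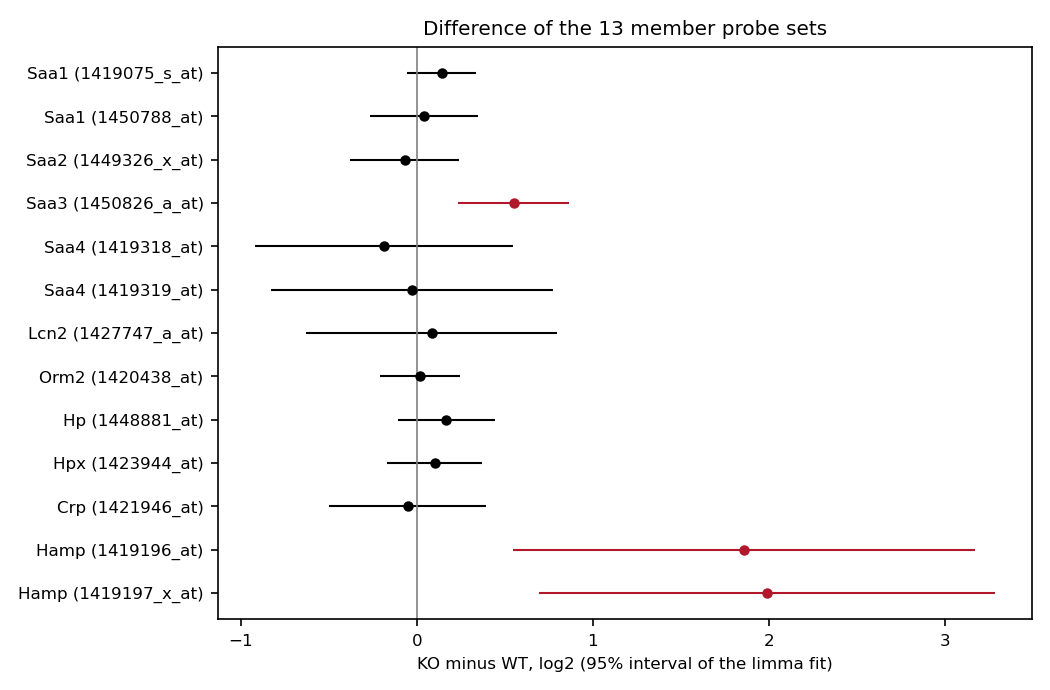
KO minus WT (log2) of each of the 13 probe sets, with the 95% interval of the limma fit. The 3 probe sets in red, of Saa3 and Hamp, are those whose groups do not overlap, and their intervals lie above 0 before adjustment over all probe sets.

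The main serum amyloid A genes of the acute phase, Saa1 and Saa2, gave only low values in these livers. The 2 probe sets of Saa1 lay between 1.80 and 2.67 in KO and between 1.68 and 2.54 in WT livers, and that of Saa2 between 2.44 and 3.05 in KO and between 2.73 and 2.88 in WT livers. All of these values lay below the median of their own array, so expression is not shown to be above background in either group and no fold is given. The log2 differences were 0.14 ± 0.088 and 0.041 ± 0.14 for Saa1 and -0.068 ± 0.14 (SE) for Saa2. The Saa1 probe set 1419075_s_at carries, in the array annotation, a transcript that RefSeq assigns to Saa2. The Saa2 probe set ends in _x_at, so the 2 genes cannot be told apart with certainty here. Orm2, an orosomucoid (alpha-1-acid glycoprotein), was likewise below every array median, at 1.72 to 2.09 in KO and 1.86 to 2.04 in WT livers.

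Saa4, the constitutive serum amyloid A of high density lipoprotein, lay above every array median and varied more between livers than between genotypes. The probe set 1419318_at read 6.81, 7.23, 6.37 and 7.49 in KO livers and 6.40, 7.91, 6.88 and 7.45 in WT livers. The groups overlapped widely, with WT 2 highest and KO 3 lowest. The difference was -0.19 ± 0.33 (SE), with a 95% interval of -0.92 to 0.55 and a limma adjusted p of 0.895. The second probe set, 1419319_at, gave -0.029 ± 0.36, and the 2 sets differed by 0.21 to 0.73 within a liver.

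Haptoglobin and hemopexin, the plasma proteins that bind free haemoglobin and free heme, were read near the top of the array range in both groups. Hp had values of 12.48, 12.48, 12.94 and 12.72 in KO livers and 12.54, 12.63, 12.43 and 12.35 in WT livers. KO 3 and KO 4 were the 2 highest livers, while KO 1 and KO 2 lay within the wild type range. The difference was 0.17 ± 0.12 (SE), with a 95% interval of -0.11 to 0.44, which reaches a 1.36-fold level in the array values. Whether differences near the top of the array range are compressed, for Hp or for Hpx, was not tested. Hpx had values of 12.29, 12.56, 12.75 and 12.59 in KO livers and 12.33, 12.66, 12.39 and 12.41 in WT livers. Its lowest value was in KO 1 and its highest in KO 3, and the difference was 0.10 ± 0.12, with a 95% interval of -0.17 to 0.37. The limma adjusted p was 0.685 for Hp and 0.828 for Hpx. Within replicates 1 and 2 the differences were -0.10 for Hp and -0.072 for Hpx, against 0.44 and 0.27 within replicates 3 and 4.

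C-reactive protein, a pentraxin that is a minor acute phase protein in mice, did not part the groups. Crp read 9.63, 9.59, 9.34 and 9.61 in KO livers and 9.73, 10.09, 9.005 and 9.56 in WT livers. The 4 knockout livers lay inside the wild type range. The difference was -0.053 ± 0.20 (SE), with a 95% interval of -0.50 to 0.39.

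Lcn2, the iron-siderophore binding protein lipocalin 2, comes both from hepatocytes under interleukin 6 and from neutrophil precursors. It read 9.81, 9.28, 10.82 and 10.57 in KO livers and 9.75, 10.57, 9.81 and 10.01 in WT livers. KO 3, KO 4 and WT 2 were high and KO 2 was lowest, so the groups overlapped. The difference was 0.085 ± 0.32 (SE), with a 95% interval of -0.63 to 0.80 and a limma adjusted p of 0.956. Among replicates 1 and 2 it came to -0.62, and among replicates 3 and 4 to 0.79, and whether these 2 values differ was not tested. Of 14 measured markers of neutrophils and their precursors 0 passed, with a mean of 8.75 to 9.52 in KO and 8.77 to 9.72 in WT livers. The secondary granule gene Ltf, which had the lowest p of that list, differed by -0.47 with KO values of 9.57 to 10.56 and WT values of 10.15 to 10.81. Their part in the Lcn2 values was not tested.

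Among 18 measured positive acute phase genes outside the members, 1 was higher past the threshold in limma and 0 were lower, against 0.308% higher and 0.841% lower of all 18193 genes. Lbp, which hands bacterial lipopolysaccharide to CD14, rose by 0.78 ± 0.15 (SE), with values of 10.28, 10.45, 10.79 and 10.86 in KO livers and 9.96, 9.95, 9.58 and 9.76 in WT livers. Its limma adjusted p of 0.0499 lay just under the threshold, and it was above the threshold when any 1 array other than KO 1 was left out. A second probe set of Lbp overlapped between the groups, with a difference of 0.57 and a limma adjusted p of 0.596. The list's median difference was 0.094, against 0.014 over all genes. Fgb, the fibrinogen beta chain, lay between 12.49 and 12.72 in KO and between 12.18 and 12.34 in WT livers, with a limma adjusted p of 0.187.

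Orm1, another orosomucoid, ranged widely in both groups, from 3.33 to 6.49 in KO and from 3.42 to 8.70 in WT livers, and differed by -0.32 ± 1.06 (SE). Orm3 stayed between 2.27 and 2.44 in KO and between 2.20 and 2.67 in WT livers. The metallothioneins Mt1 and Mt2, which bind zinc and are induced by glucocorticoids and interleukin 6, had the most negative differences of that list. Mt1 lay between 10.61 and 11.86 in KO and between 12.05 and 12.41 in WT livers, with a limma adjusted p of 0.112. A dimmer probe set of Mt1 overlapped between the groups, at 5.28 to 6.60 in KO and 5.67 to 6.87 in WT livers. Its difference was -0.52, with a limma adjusted p of 0.605. Mt2 lay between 9.88 and 11.07 in KO and between 11.37 and 11.62 in WT livers, with a limma adjusted p of 0.130. Of 8 measured negative acute phase genes 0 passed, and the lowest p was that of Fetub, fetuin B, at 10.79 to 11.15 in KO and 10.26 to 10.73 in WT livers.

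The signalling genes that lead to the acute phase showed no call. Of 20 measured genes 0 passed, and the median difference was 0.090. Il6 lay below every array median, at 1.80 to 2.11 in KO and 1.90 to 2.10 in WT livers. Stat3 differed by 0.20 ± 0.16 (SE) on its brightest probe set. Socs3, a feedback inhibitor induced by STAT3, read 5.76 to 6.23 in KO and 6.25 to 6.44 in WT livers on its brightest probe set, with a limma adjusted p of 0.286, while the other 2 sets overlapped. Il6ra, the interleukin 6 receptor, read 5.26 to 5.39 in KO and 4.94 to 5.20 in WT livers. Nfkbia, the NF-kB inhibitor and target, had the lowest p of the list, at 9.32 to 10.28 in KO and 8.87 to 9.36 in WT livers. Il1r1, an interleukin 1 receptor, read 7.17 to 7.82 in KO and 6.93 to 7.14 in WT livers, with a limma adjusted p of 0.155. All KO values lay above all WT values in 2 of the 20 genes, Il6ra and Il1r1, and below them in 2, Socs3 and Cebpa. These patterns were seen in 3.09% and 3.81% of all probe sets. Cebpb and Cebpd, C/EBP factors of the acute phase, differed by 0.25 and 0.22 with overlapping groups.

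Of the 20 measured genes of hepcidin regulation 0 passed, and the median difference was 0.19, against 0.014 over all 18193 genes. A difference above 0 was seen in 17 and below 0 in 3, and the share above 0 over all genes was not counted. Hamp2, a copy of Hamp in this list and not a regulator of it, had the lowest p. Its probe set 1436643_x_at read 6.72, 7.49, 6.99 and 7.73 in KO livers and 5.54, 6.49, 6.20 and 6.32 in WT livers, a difference of 1.09 ± 0.25 (SE) with a limma adjusted p of 0.0930. WT 1 was again the lowest, the groups did not overlap, and probes of a set named _x_at can bind Hamp as well. The other probe set of Hamp2, below every array median, read 3.19 to 3.48 in KO and 2.91 to 3.19 in WT livers, a difference of 0.30 ± 0.10.

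Bmp6 and the readouts of the BMP route did not pass the threshold. Id1, a direct target of SMAD factors, read 6.88, 7.61, 7.22 and 7.45 in KO livers and 6.83, 6.80, 6.96 and 6.86 in WT livers, a difference of 0.42 ± 0.15 (SE) with a limma adjusted p of 0.273. KO 1 lay within the wild type range of Id1, and KO 1 was also the lowest knockout liver for Hamp and Hamp2. The other livers did not all share an order. WT 2 was the lowest wild type liver for Id1 and the highest for both probe sets of Hamp. KO 2 was the highest knockout liver for Id1, while KO 4 was the highest for the first probe set of Hamp. Smad7, an inhibitory SMAD induced by the same route, overlapped between the groups and differed by 0.11 ± 0.10. Smad6, another inhibitory SMAD, and Atoh8, a transcription factor induced by the route, overlapped too, with differences of -0.20 ± 0.24 and -0.16 ± 0.13. Bmp6, the ligand that carries the iron signal, lay below every array median, at 2.69 to 3.04 in KO and 2.22 to 2.68 in WT livers. Tfr2, which senses transferrin-bound iron, differed by 0.11 ± 0.090, and Tmprss6, the protease that dampens the route by cutting hemojuvelin, by -0.15 ± 0.10. Bmp2, another BMP ligand, Hjv, the gene of hemojuvelin, and Smad4, a SMAD factor, overlapped between the groups. They differed by 0.59 ± 0.19, 0.56 ± 0.18 and 0.44 ± 0.14, with limma adjusted p of 0.212 to 0.230. At an unadjusted limma p under 0.05, 6 of the 20 list genes were higher, Hamp2 among them, and 0 were lower. The share over all probe sets was 11.7% in both directions together. The like share, for higher values alone and with 1 probe set a gene, was not counted.

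**Figure D3:**
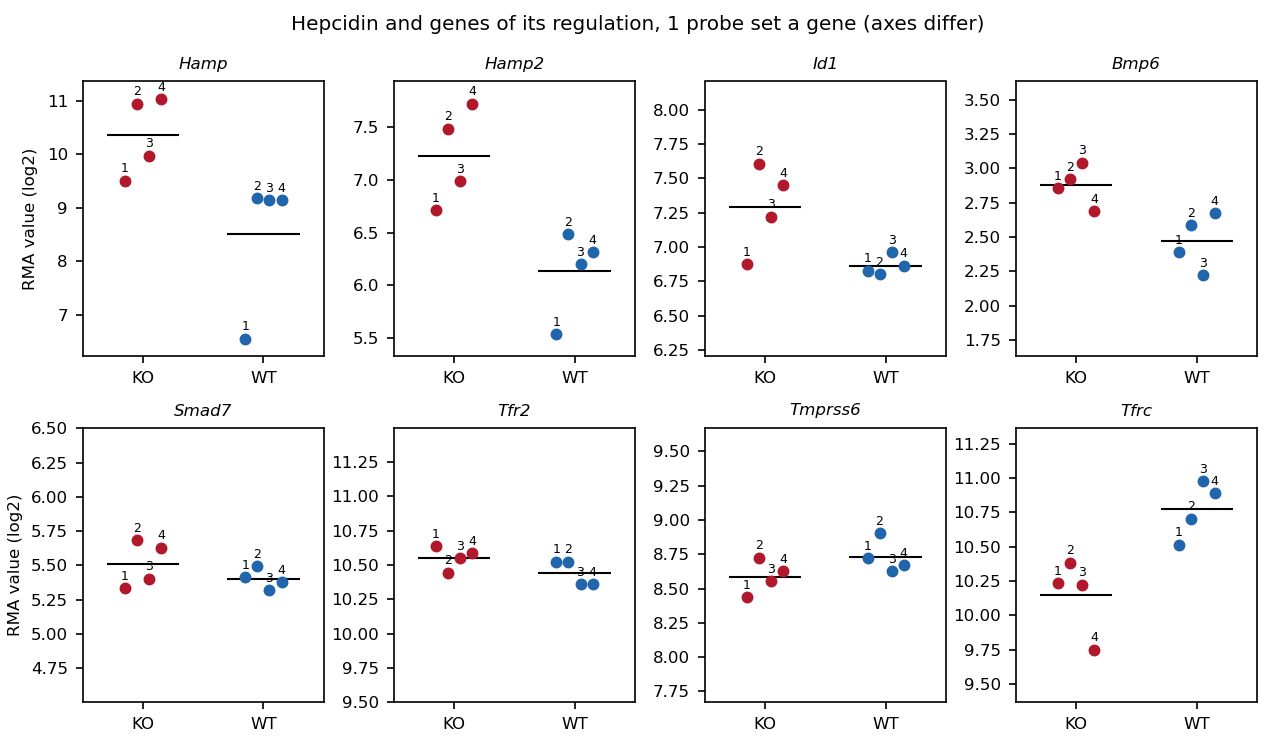
RMA values (log2) of Hamp, Hamp2 and 6 genes of hepcidin and iron control in each liver, KO to the left of WT, on axes that differ between panels. Points are livers numbered by replicate and bars are group means. KO 1 is the lowest KO liver and WT 1 the lowest WT liver for both Hamp and Hamp2, and Tfrc lies lower in each KO liver than in any WT liver.

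Iron handling genes gave 0 calls among 13 measured. Tfrc, the transferrin receptor that red cell precursors use to take up iron, had the lowest p, with 10.24, 10.38, 10.22 and 9.75 in KO livers and 10.52, 10.70, 10.98 and 10.89 in WT livers. It was lower in all 4 KO livers on each of its 3 probe sets, with differences of -0.62, -0.76 and -0.79 and limma adjusted p of 0.106 to 0.146. Slc40a1, the iron exporter ferroportin that hepcidin removes, overlapped between the groups and differed by 0.22 ± 0.11 (SE).

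Markers of red cell precursors had mostly lower values in the knockout livers. Of 7 measured erythroid markers 0 passed the threshold, 6 had all KO values below all WT values, and 1 did not, against 3.81% of all probe sets. The list mean was 7.12 to 7.77 in KO and 7.98 to 8.16 in WT livers. Klf1, an erythroid transcription factor, had the lowest p, with 8.44 to 9.45 in KO and 9.73 to 9.95 in WT livers and a limma adjusted p of 0.0636. The exception was the Hba-a1 probe set, which lay below every array median. The part of the erythroid cells in the Hamp and Tfrc values was not tested.

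Genes for the clearance of haemoglobin and heme, which cover the receptors for the haptoglobin and hemopexin complexes and the transport and breakdown of heme, gave 0 calls among 9 measured. Cd163, the macrophage receptor for haptoglobin with haemoglobin, read 4.64 to 5.68 in KO and 3.18 to 5.75 in WT livers. Lrp1, the receptor for hemopexin with heme, differed by -0.094. Hmox1, the heme-degrading oxygenase, read 7.96 to 8.56 in KO and 7.58 to 7.98 in WT livers, a difference of 0.56 ± 0.16 (SE) with a limma adjusted p of 0.167. Blvrb, biliverdin reductase B, had the lowest p of that list, at 9.31 to 10.09 in KO and 10.18 to 10.29 in WT livers.

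Of the other cell type markers, hepatocyte genes gave 0 calls of 9, endothelial genes 0 of 8 and B cell precursor genes 0 of 7. Hepatocyte markers averaged 11.73 to 12.07 in KO and 11.60 to 11.80 in WT livers. The lowest p among them was that of Ttpa, the alpha-tocopherol transfer protein, at 10.60 to 11.08 in KO and 9.64 to 10.81 in WT livers. Endothelial markers averaged 5.33 to 6.12 in KO and 5.59 to 5.87 in WT livers, and B cell precursor markers 4.23 to 4.53 in KO and 4.23 to 5.17 in WT livers. Of the 8 endothelial genes 7 had a difference below 0, with a list median of -0.13, against 0.014 over all genes. The share below 0 over all genes was not counted. The exception among the endothelial genes, Lyve1, a hyaluronan receptor of sinusoidal endothelium, had the lowest endothelial p, at 7.67 to 8.40 in KO and 6.76 to 8.32 in WT livers. Ebf1, a transcription factor of early B cells, had the lowest p of the B cell list, at 2.86 to 3.10 in KO and 2.97 to 3.99 in WT livers.

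**Figure D4:**
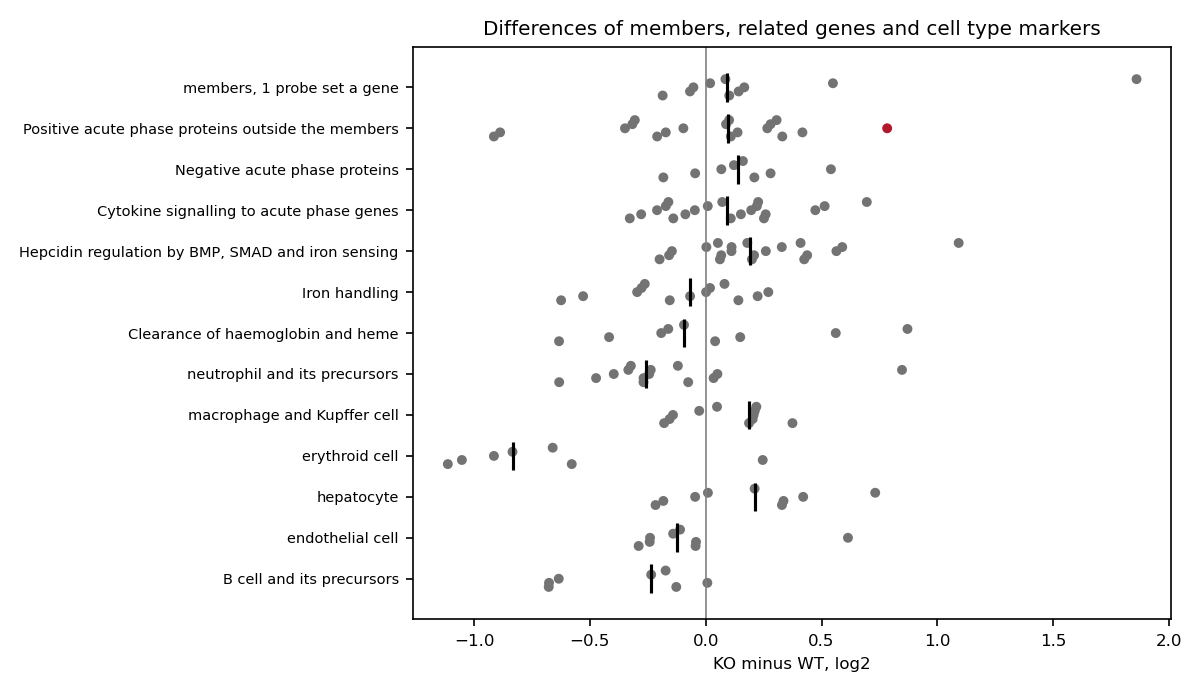
KO minus WT (log2) of each gene of the members and of the 12 lists, 1 probe set a gene, with a bar at the median of each list and genes past the limma threshold in red. Lbp is the 1 red point, and the erythroid markers have the lowest median, -0.83.

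The genes whose values followed those of Hamp most closely across livers were Vps9d1, Psd3 and Gopc. After the mean of the own group was taken from each value, their Pearson correlations with Hamp over 8 livers were 0.980, 0.971 and 0.968, the highest of 11807 genes that lay above the median level. The Spearman values were 0.778, 0.786 and 0.571. Without WT 1 and KO 1, the 2 livers farthest from the median of Hamp, the Pearson values over 6 livers were 0.948, 0.958 and 0.902. For Lcn2 the closest were Jtb, Mgrn1 and Tbc1d8, at 0.969, 0.968 and 0.958. For Saa1, whose values lie below the array medians, they were Zfp384, Slc41a3 and Pcgf5, at 0.974, 0.964 and 0.939. They were picked as the highest of many over few livers, so they are given as a description with no test.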

How the data were processed

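Total RNA of 8 livers was read on 8 arrays. The deposited log2 values were made by the authors with RMA, per the submitters' processing notes, with version and settings not given in the sources used here. RMA brings arrays to 1 distribution, so a change in total mRNA leaves no trace, and fold changes near background come out too small. Arrays give no read depth, and 4 arrays per group limit the precision. Whether each array is a separate litter is not stated, so p-values measure the spread between these samples.

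KO was compared with WT with limma 3.58.1 in R 4.3.3 (lmFit, eBayes, two-sided, no covariate) over 45037 probe sets, with 64 array controls left out, Benjamini-Hochberg adjustment over all and a threshold of 0.05. The fit was tested on simulated data. The highest-mean probe set stood for a gene in lists. Sequences are those of RefSeq (GRCm38.p6), aligned with Biopython 1.88.

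Members and lists were chosen with earlier results of these data known. Of 162 list entries 146 were measured, some under a newer symbol. Named were all members, all list genes past the threshold or the one with the lowest p, a fixed set of regulators, and the 3 genes closest to Saa1, Lcn2 and Hamp. Fgb, Mt1, Mt2, Il6, Il1r1, Cebpa, Clec4f, Timd4, Smad6, Atoh8, Bmp2, Hjv, Smad4 and Hba-a1 were named after their values were seen. The 19 alternatives were 8 fits that each left out 1 array, fits with the replicate number, the array set or a Y-linked mean as a term, fits within each array set, other scalings, a filter on dim probe sets, and other variance models.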

Additional observations from a re-analysis of the deposited data

Results flagged for a closer look

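In the 26 sets of 4 livers formed by the 13 probe sets and 2 genotypes, 3 held a liver that stood apart from its group, by a gap to the nearest liver that was too large a share of the group's range under Dixon's 95% criterion. Chance gives about 1 in 20 for each set. The sets are not independent, since both probe sets of Hamp read 1 gene in the same livers. WT 1 read 6.56 for Hamp on the first probe set, against 9.14 in the nearest wild type liver, and 6.59 on the second, against 8.87. KO 3 read 9.34 for Crp, against 9.59 in the nearest knockout liver, a small gap in a narrow range.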

How the results depend on the processing

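The count of member probe sets past the threshold was 0 in limma with all arrays, without each array in turn, and under every other alternative except array weights, which gave 1, the probe set of Saa3. Over all probe sets 343 passed. There were 15 with the replicate block, where the Hamp probe sets had limma adjusted p of 0.0665 and 0.0546. The SE of the Hamp differences was 0.30 and 0.25 with the block, against 0.59 and 0.58 without it. KO and WT share replicate numbers that no label ties to litters, so the numbers were not taken as pairs. The deviations of same-numbered livers correlated at -0.0039, 0.069, 0.17 and 0.26. Livers with different numbers were not compared in this way, so these values do not decide whether the livers were paired. The replicate block changed no call on a member and ended the call on Lbp (adjusted p 0.115). With the Y-linked covariate 527 passed, with array weights 914, in replicates 1 and 2 alone 4, and without single arrays between 9 and 489. The count was 177, 38 and 13 without KO 1, KO 3 and KO 4, and 161, 13 and 9 without WT 1, WT 3 and WT 4.

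The differences of Hamp, Saa3 and the Saa1 probe set 1419075_s_at kept their sign in each alternative that held them. The filter on dim probe sets left out this Saa1 set. For Hamp and Saa3, whose groups do not overlap, the sign is fixed in any fit that only leaves out or weights arrays. Differences near 0 changed sign, none with a call. In replicates 1 and 2 alone Saa2 was at 0.15, the second Saa4 set at 0.031, Lcn2 at -0.62, Hp at -0.10 and Hpx at -0.072. In replicates 3 and 4 alone the Saa1 set 1450788_at was at -0.0077, Orm2 at -0.038 and Crp at 0.19. The second Saa4 set was at 0.0083 after quantile normalization again and at 0.068 with array weights, where Crp was at 0.065. Leaving out single arrays gave -0.054 to 0.13 for that Saa1 set, -0.17 to 0.033 for Saa2, -0.44 to 0.062 and -0.21 to 0.29 for Saa4, -0.15 to 0.36 for Lcn2, -0.0297 to 0.093 for Orm2 and -0.25 to 0.11 for Crp. Lcn2 was at -0.15 without KO 3 and at -0.0082 without WT 1. The cause of these shifts was not tested.

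Saa1, Saa2 and Orm2 lie below the array medians, so small changes in them are not detectable on these arrays.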

Other observations

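WT 2 was the highest of the 4 wild type livers for 10 of the 10 genes. These include 3, Saa1, Saa2 and Orm2, that lay below every array median, where expression is not shown to be above background. Over all 18193 genes WT 2 was the highest wild type liver in 26.7%. The same liver stood out for Orm1, at 8.70 against 3.42 to 5.23 in the other wild type livers, and for Chil3, a chitinase-like protein of neutrophils and macrophages, at 9.81 against 6.10 to 6.71. Both genes were picked after their values were seen. In knockout livers the highest value fell in KO 1 for 4 of the 10 genes, KO 2 for 1, KO 3 for 3 and KO 4 for 2.

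Lcn2, Cebpb, Cebpd and Orm1 ordered the 4 knockout livers alike, with KO 3 highest, then KO 4, KO 1 and KO 2. Cebpd read 7.70 in KO 3, 7.35 in KO 4, 6.61 in KO 1 and 6.14 in KO 2, and Orm1 read 6.49, 5.85, 4.62 and 3.33 in the same order. The Y-linked mean was 5.35 and 4.96 in KO 3 and KO 4, against 2.23 and 2.50 in KO 1 and KO 2. Replicates 3 and 4 were also told apart from replicates 1 and 2 in an earlier analysis of the same data, a split that no label ties to a batch. The order of these genes therefore cannot be told apart from either difference. The first probe set of Hamp and the _x_at set of Hamp2 shared another order, with KO 4 highest, then KO 2, KO 3 and KO 1. These orders were noticed in the values and were not tested.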
